A study of Mus musculus with 7 samples.

Results

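Nuclease accessible regions of the mouse genome were examined in adult liver with 3 enzymes, and the regions described here are those where Cyanase was the only enzyme to give a hotspot. A hotspot is a stretch of the genome where the ends of nuclease fragments cluster above the background. Livers came from 8 week old male C57BL/6 mice. Pulverized frozen tissue was digested with Benzonase in 3 samples and with Cyanase in 3 samples, at labelled amounts of 0.25, 1 and 4 U, and nuclei of fresh liver were digested with DNase I in 1 labelled sample. The DNase I list therefore differs from the other lists in tissue preparation as well as in enzyme, and these cannot be told apart. Each enzyme had 1 pooled list of hotspot positions on mm9, with no tag number, so the depth behind a hotspot is unknown and replicate error could not be measured. The 95% intervals given below cover counting error or the spread over regions only, and describe these lists rather than animals.

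Hotspots of the 3 lists on chromosomes 1 to 19 were merged wherever they overlapped by 1 bp or more. This gave 90879 regions, and 6029 of them (6.63%, Wilson interval 6.47 to 6.80%) held a Cyanase hotspot and none of Benzonase or DNase I. The members were thus chosen by the presence of one hotspot and the absence of the others, so that their number, width and distance to other hotspots are descriptions. Each of the 6029 members held exactly 1 Cyanase hotspot, and together they made up 10.8% of the 55904 Cyanase hotspots. The regions most like them were the 8301 with Benzonase alone and the 9207 with Benzonase and Cyanase but no DNase I hotspot. A further 25405 regions held DNase I hotspots alone and 36943 held hotspots of all 3 enzymes.

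Cyanase and Benzonase are endonucleases that cut many kinds of DNA, with a reported preference of Benzonase for GC rich sequence, and stay active in detergent, which allows digestion of permeabilized tissue without isolating nuclei. DNase I has long been used to find regulatory DNA, where bound transcription factors displace nucleosomes. Runs of G can stack into a G-quadruplex, and long stretches of purines on a single strand are known from simple repeats and from promoters, where they can take up unusual DNA structures.

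As a group the members differed from the similar classes in runs of a single base and in an unequal split of G and C between the strands. The following sequences show what average regions look like, and each is 150 bases on the plus strand of mm9, taken from the centre of a region. Runs of 4 or more G or C are in capitals. The first pair are the single-copy members nearest to the average of all members in GC content, longest run, longest purine tract and strand imbalance, and the second pair are the regions nearest to the average of Benzonase alone. The first member lies downstream of Sf3b3, which encodes a splicing factor subunit, at chr8:113332511-113332660, and the second is far from genes, with Cntnap5b as the nearest, at chr1:101109714-101109863. The Benzonase regions lie near Cacng5 at chr11:107727037-107727186 and near Gm17689 at chr9:36409806-36409955.
Cyanase alone, near Sf3b3: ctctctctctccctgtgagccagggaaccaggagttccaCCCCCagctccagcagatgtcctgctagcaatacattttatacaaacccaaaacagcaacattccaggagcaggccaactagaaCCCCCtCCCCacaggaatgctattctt
Cyanase alone, near Cntnap5b: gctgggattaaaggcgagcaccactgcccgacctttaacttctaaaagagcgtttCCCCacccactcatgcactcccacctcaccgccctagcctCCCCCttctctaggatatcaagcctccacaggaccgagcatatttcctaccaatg
Benzonase alone, near Cacng5: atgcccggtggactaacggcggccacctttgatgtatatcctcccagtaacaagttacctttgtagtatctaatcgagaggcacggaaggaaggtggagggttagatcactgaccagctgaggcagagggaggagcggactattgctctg
Benzonase alone, near Gm17689: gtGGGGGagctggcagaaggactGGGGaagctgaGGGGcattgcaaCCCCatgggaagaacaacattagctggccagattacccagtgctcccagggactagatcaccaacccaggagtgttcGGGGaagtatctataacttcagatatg

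The member near Sf3b3 holds its 3 runs as blocks of C on the printed strand, and its GC skew was 26.9%, against 15.9% in the Benzonase region near Cacng5. GC skew is the difference between the numbers of G and C as a percentage of their sum, used here without its sign and over the central 250 bp. The Benzonase region near Gm17689 has 5 runs, more than either member, of both G and C, and its skew was 18.8%. The longest run was 5 in all 4 of these regions, so that single average regions do not show the difference in runs given below. The following members were taken from the extremes, namely the longest run and 3 of the widest members. They were chosen after their values were seen.
intron of Zbtb20: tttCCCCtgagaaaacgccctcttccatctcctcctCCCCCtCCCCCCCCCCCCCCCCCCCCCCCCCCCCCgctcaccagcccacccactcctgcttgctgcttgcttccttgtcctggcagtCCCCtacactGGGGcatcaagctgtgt
distal, nearest gene 1700047G07Rik: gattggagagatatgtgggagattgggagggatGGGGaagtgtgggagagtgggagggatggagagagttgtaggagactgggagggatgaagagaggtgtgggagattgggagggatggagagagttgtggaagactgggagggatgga
intron of Cenpj: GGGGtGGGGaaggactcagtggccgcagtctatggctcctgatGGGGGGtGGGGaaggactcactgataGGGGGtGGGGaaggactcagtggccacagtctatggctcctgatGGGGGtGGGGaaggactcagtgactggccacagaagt
intron of Cdyl2: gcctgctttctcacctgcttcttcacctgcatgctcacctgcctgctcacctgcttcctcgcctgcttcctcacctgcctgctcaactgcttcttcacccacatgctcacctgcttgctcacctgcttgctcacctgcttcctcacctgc

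The first of these, chr16:43182596-43182745 in an intron of Zbtb20, a zinc finger repressor gene of liver, holds a run of 29 C. The second, chr8:99190937-99191086, lies in the second widest member and repeats a G rich unit. Over the central 250 bp of that member 78.7% of bases equal the base 29 bp earlier, and its skew was 91.4%. Such shares count only bases that have a base at that distance within the 250 bp. The third, chr14:57186090-57186239, holds 8 of the capitalized blocks in an intron of Cenpj, a centriole gene. In the central 250 bp of its member 63.9% of bases equal the base 70 bp earlier. The fourth, chr8:119131836-119131985, lies in an intron of Cdyl2. In the central 250 bp of its member 84.7% of bases equal the base 60 bp earlier, although they hold no run of 4.

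Runs of a single base were counted over the central 250 bp of every region. A run of 6 or more G or C was present in 1515 of 6028 members with known sequence (25.1%, interval 24.1 to 26.2%), and in 10.7% of all regions. The share was 14.6% in Benzonase alone, 20.3% in Benzonase with Cyanase, 10.9% where all 3 enzymes gave hotspots and 3.42% in DNase I alone. Members exceeded Benzonase alone by 10.5 percentage points (Newcombe interval 9.17 to 11.8), with the same direction on 19 of 19 chromosomes. They exceeded Benzonase with Cyanase by 4.86 points (3.50 to 6.23). Windows of the same size 2.5 kb to either side of the members held such runs in 7.93% and 8.25%, and the windows beside Benzonase alone gave 8.29% and 8.23%. The difference between the lists was thus seen in the regions and not in the DNA around them.

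Longer runs differed more in proportion. A run of 8 or more was found in 6.85% of members and 2.92% of Benzonase alone, whereas a run of 4 or more was found in 92.1% and 88.6%. The pattern of 4 runs of at least 3 G, or 3 C, with 1 to 7 bases between them, which is the usual sequence definition of a potential G-quadruplex, was present in 23.6% of members and 11.8% of Benzonase alone, with 9.75% over all regions. That difference was 11.8 points (10.5 to 13.1). Against Benzonase with Cyanase, where the pattern was found in 22.0%, it was only 1.55 points (0.185 to 2.92) and had the same sign on 12 of 19 chromosomes.

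Long purine tracts were more frequent in the members than in every other class. A tract of 30 or more purines, or of 30 or more pyrimidines, was found in 430 members (7.13%, interval 6.51 to 7.81%) and in 2.02% of all regions. The other 6 classes lay between 1.06% in DNase I with Benzonase and 2.59% in Benzonase with Cyanase. The difference was 5.42 points (4.73 to 6.15) from Benzonase alone and 4.55 points (3.84 to 5.29) from Benzonase with Cyanase, and it had the same sign on 19 of 19 chromosomes in both. Windows 2.5 kb to the sides of members gave 3.14% and 3.65%, and those beside Benzonase alone gave 3.47% and 3.33%. Members therefore held more of these tracts than the DNA beside them, while Benzonase alone held fewer.

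Mean GC skew was 26.6% ± 23.98 in members (SD over 6028 regions) and 17.3% ± 16.3 in Benzonase alone, a difference of 9.30 points (8.60 to 9.996). The median skew was 19.2% and 12.7%. In Benzonase with Cyanase the mean was 18.7%, in DNase I alone 11.2% and with all 3 enzymes 12.1%. Beside the members it was 14.1% and 14.2%. Among 2601 members inside genes of a single orientation, the strand with more G was the sense strand in 50.1% (interval 48.2 to 52.1%), an interval that includes 50%.

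**Figure D1:**
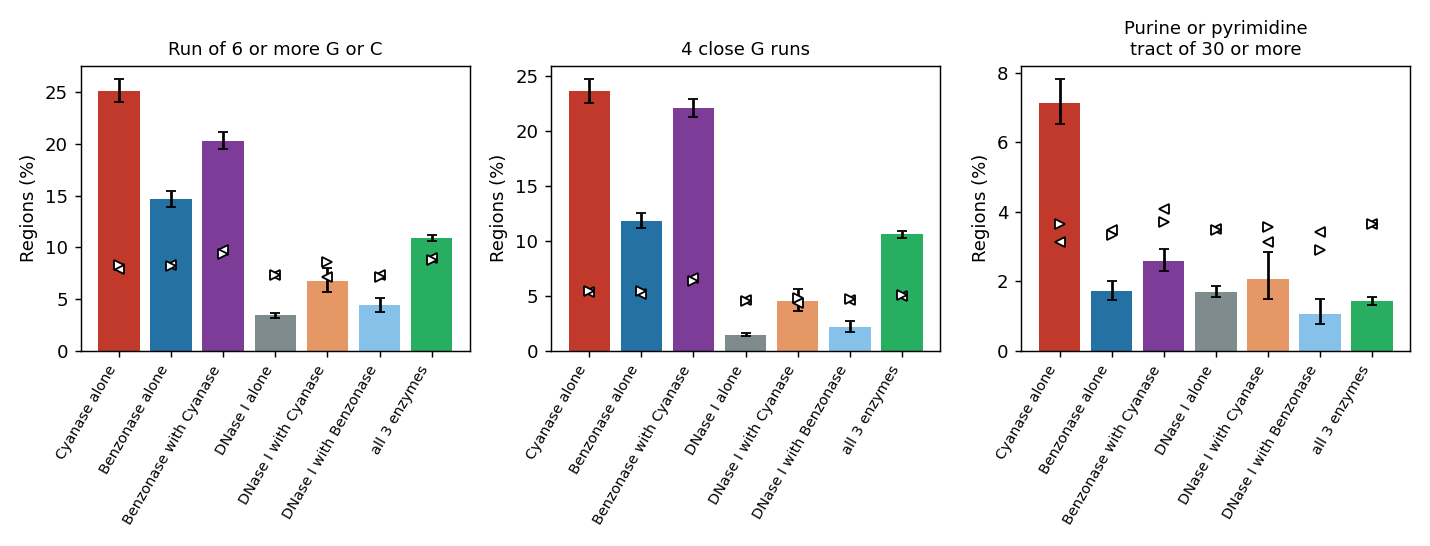
Percentage of regions in each class whose central 250 bp hold a run of 6 or more G or C, 4 close runs of G or C, or a purine or pyrimidine tract of 30 or more. Bars are shares with 95% Wilson intervals and open triangles are windows 2.5 kb to the left and right. Cyanase alone is the highest class in each panel, at 25.1%, 23.6% and 7.13%.

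The dinucleotides showed the same contrast. CC or GG made up 19.03% of dinucleotides in members and 17.7% in Benzonase alone, a difference of 1.32 points (1.16 to 1.49), while Benzonase with Cyanase was higher still at 20.2%. GA or TC was also higher, at 13.4% against 12.5%. In the other direction, the alternating dinucleotide GC was lower in members (5.76% against 7.02%), as were CG (1.49% against 2.21%) and CA or TG (15.7% against 16.7%). The members were thus lower in GC and CG steps although their total GC content was close to that of Benzonase alone.

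Words of 6 letters were counted on either strand, and those named here were chosen for the size of their difference, so no test is given. CCCTCC was found in 48.6% of members and 36.5% of Benzonase alone, GGGGGA in 36.2% and 24.3%, CTCCCC in 44.4% and 32.8%, and CCTCCC in 52.5% and 41.0%. The largest differences in the other direction were GCCAGC, with 22.9% and 30.7%, and GCTGCC, with 23.5% and 30.5%. Benzonase with Cyanase held these in 32.78% and 33.6%. The named words that were more frequent in members hold purines alone on one strand, and the last pair hold the step GC.

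A second pair of classes allowed the same measures in regions that are no members. Among regions with a DNase I hotspot, 1794 also held Cyanase and not Benzonase, and 3200 also held Benzonase and not Cyanase. Runs of 6 or more were found in 6.74% of the former and 4.38% of the latter, a difference of 2.37 points (1.05 to 3.79). Purine tracts of 30 or more gave 2.06% and 1.06% (difference 1.00, interval 0.299 to 1.82), and 4 close runs gave 4.52% and 2.12% (2.39, interval 1.36 to 3.54). Mean GC skew was 12.6% and 10.8% (1.79, interval 1.21 to 2.37), and the GC dinucleotide was 5.18% and 5.69% (-0.514, interval -0.621 to -0.408). The sizes were smaller than in the members, and the pair comes from the same pooled libraries. CCCTCC was found in 23.1% and 15.2% of these regions, and GCCAGC in 21.9% and 24.3%.

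The contrast with Benzonase alone was present within subsets of regions. By GC content of the central 250 bp, runs of 6 or more differed by 3.99 points (1.58 to 6.46) under 50% GC, by 10.4 points between 50 and 55%, by 13.3 points between 55 and 60% and by 15.9 points (12.3 to 19.5) over 60%. In promoters the shares were 30.4% and 19.3%, in exons 26.0% and 14.1%, in introns 24.9% and 12.97%, and in distal regions 24.5% and 15.02%. Among regions made mostly of single-copy sequence the difference was 10.7 points (9.26 to 12.1). The long purine tracts were not separable in every subset. In exons they were found in 1.08% and 0.760% of regions, a difference of 0.317 points (-0.620 to 1.62), in CpG islands the difference was 0.320 points (-0.380 to 2.37), and downstream of genes it was 2.02 points (-1.13 to 7.07).

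**Figure D2:**
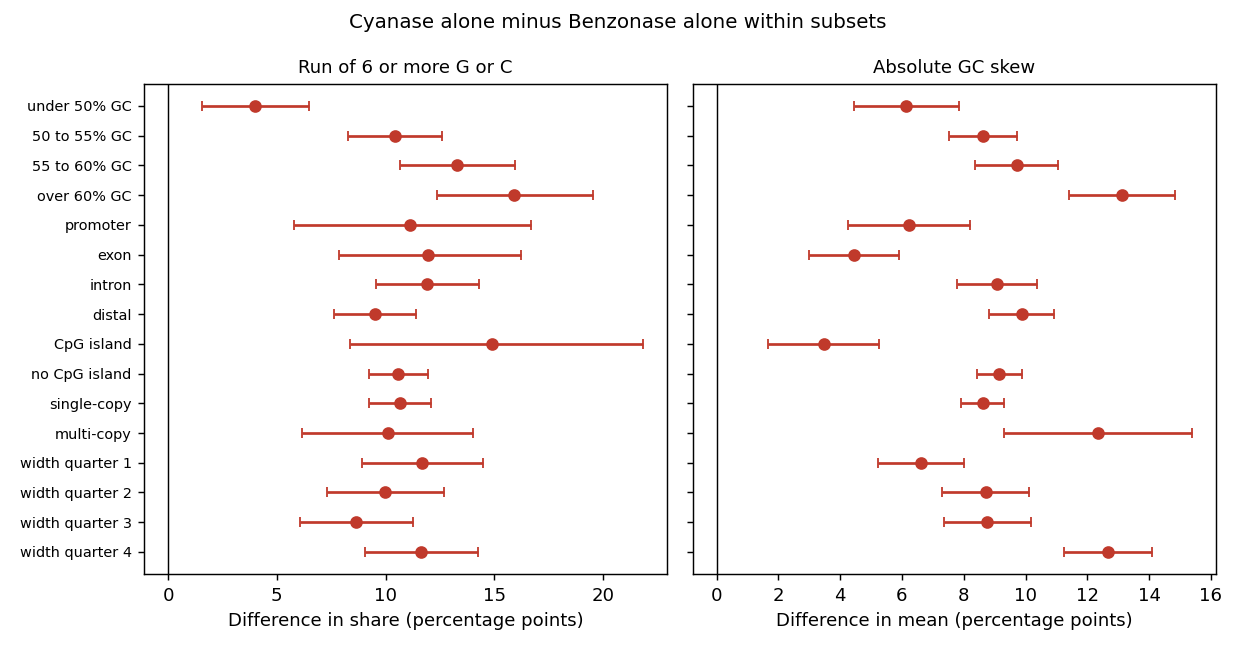
Cyanase alone minus Benzonase alone within subsets of regions, for the share with a run of 6 or more G or C (left) and for mean absolute GC skew (right), in percentage points with 95% intervals. Width classes 1 to 4 are cut at the quartiles of the members' width. Every interval drawn lies above 0, and the run difference grows from 3.99 points under 50% GC to 15.9 points over 60% GC.

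The mean GC content of members was 53.6% ± 5.92 (SD, 6029 regions), against 44.0% in the 5 kb to either side, and 5728 members (95.01%) exceeded their own flanks. The mean difference from the flanks was 9.56 points, and it was 9.95 points in Benzonase alone and 9.56 points in Benzonase with Cyanase. These values are over whole regions, which differ in width. With the central 150 bp of each region in place of the whole, the difference was 10.8 points in members, 11.1 points in Benzonase alone and 12.9 points in Benzonase with Cyanase. GC content differed from Benzonase alone by -0.747 points (-0.948 to -0.546) and from Benzonase with Cyanase by -2.40 points (-2.61 to -2.20). Outside CpG islands the members and Benzonase alone had 53.1% and 53.1%, with a difference of -0.0459 points (-0.224 to 0.133). Members were higher than DNase I alone by 11.1 points.

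The elevation was centred on the region. GC content of 50 bp windows reached 54.8% at the centre of members and had dropped to 48.6% at 250 bp to either side. Runs of 5 or more were found in 19.2% of the central windows of members and in 13.7% of those of Benzonase alone, and at 250 bp the shares were 12.04% to 12.3% and 11.2% to 11.7%. The lists thus differed more near the centre than at 250 bp, which lies outside most members.

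**Figure D3:**
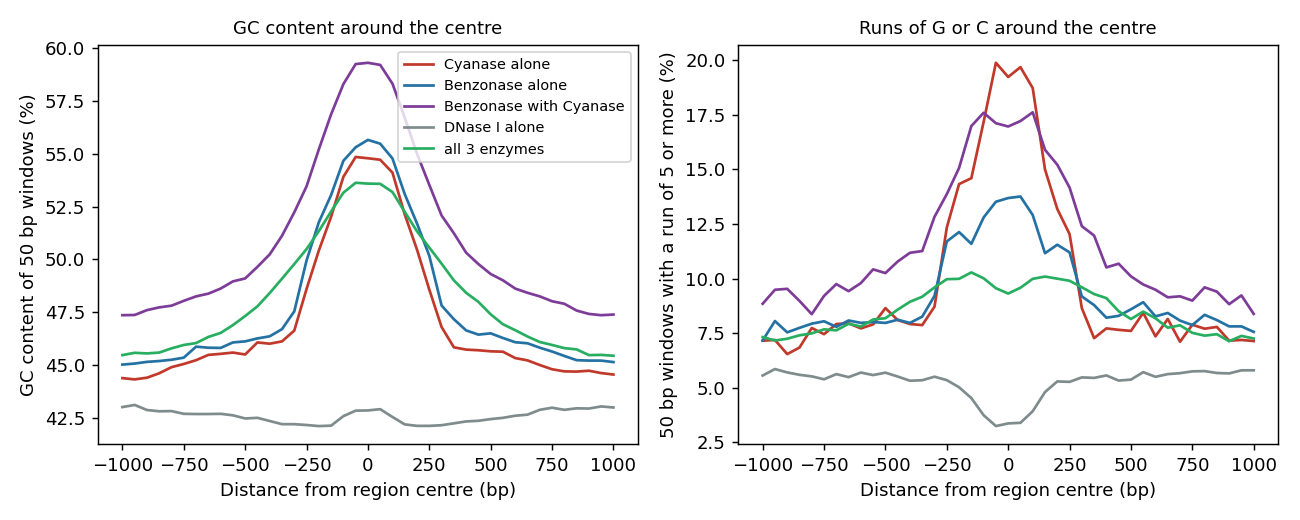
Mean GC content (left) and percentage of 50 bp windows with a run of 5 or more G or C (right) against distance from the region centre, for 5 classes. Cyanase alone and Benzonase alone have similar GC profiles, while runs reach 19.2% at the centre of Cyanase alone and 13.7% at that of Benzonase alone.

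Hoxa3, a homeobox gene, held the member with the highest GC content, 85.7% over 251 bp of an exon, with 46.4% in its flanks. This region ended 12 bp from a Benzonase hotspot. The next in GC content lay at Trank1 (81.3%), Nbl1 (80.1%), Otp (80.1%) and Brsk2 (79.4%). The lowest GC content was 25.1%, in an intron of the olfactory receptor gene Olfr1213, followed by 28.8% near Sult1d1, a sulfotransferase gene. The central sequences of the highest and lowest member are shown to mark this range, at chr6:52141289-52141438 and chr2:88817894-88818043.
highest GC content, exon of Hoxa3: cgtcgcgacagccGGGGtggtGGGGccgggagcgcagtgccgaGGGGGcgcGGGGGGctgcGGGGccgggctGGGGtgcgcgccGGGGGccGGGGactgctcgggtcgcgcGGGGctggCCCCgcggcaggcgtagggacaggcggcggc
lowest GC content, intron of Olfr1213: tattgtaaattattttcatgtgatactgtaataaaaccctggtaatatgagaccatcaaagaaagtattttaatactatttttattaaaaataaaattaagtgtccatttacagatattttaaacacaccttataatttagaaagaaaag

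Members were seldom CpG islands. Of the 6029, 223 overlapped an island (3.70%, interval 3.25 to 4.21%), against 9.40% of Benzonase alone, 24.01% of Benzonase with Cyanase, 24.4% where all 3 enzymes gave hotspots and 0.138% of DNase I alone. The share over all regions was 13.5%. The difference from Benzonase alone was -5.70 points (-6.48 to -4.91), and members were lower on 19 of 19 chromosomes. Among regions over 60% GC, 19.9% of members and 41.3% of Benzonase alone overlapped an island. Overlap was counted over whole regions, which differ in width between the classes. The difference from Benzonase alone was -1.635 points (-2.988 to -0.2595) in regions narrower than 277 bp. In regions of 449 bp or more it was -11.8 points (-13.58 to -9.966).

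Distal sequence held 51.7% of members, introns 31.3%, exons 9.24%, promoters 6.10% and the 2 kb downstream of genes 1.64%. A promoter here is the 2 kb upstream of a transcription start site (TSS) of a protein-coding transcript, and regions were assigned in the order promoter, exon, intron, downstream and distal. Promoters held 17.5% of all regions, 9.48% of Benzonase alone and 23.9% of Benzonase with Cyanase. Members differed from Benzonase alone by -3.38 points at promoters (-4.25 to -2.50), by -3.43 points in exons (-4.45 to -2.40) and by 4.40 points in distal sequence (2.74 to 6.06). Coding sequence was touched by 9.42% of members and 14.6% of Benzonase alone. The promoter difference depended on width, with -0.428 points (-2.145 to 1.328) in regions narrower than 277 bp and -7.58 points (-9.414 to -5.683) in those of 449 bp or more. By GC content it was -11.5 points over 60% (-14.5 to -8.41). In the lower GC classes it was -0.418 points under 50% (-1.86 to 1.08), -0.820 points from 50 to 55% (-1.91 to 0.309) and -1.02 points from 55 to 60% (-2.52 to 0.520), and none of these was separable from 0. In the second pair of classes, promoters held 6.08% of DNase I with Cyanase and 6.56% of DNase I with Benzonase, again not separable, while islands were overlapped by 0.334% and 1.19% (difference -0.853, interval -1.33 to -0.345).

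**Figure D4:**
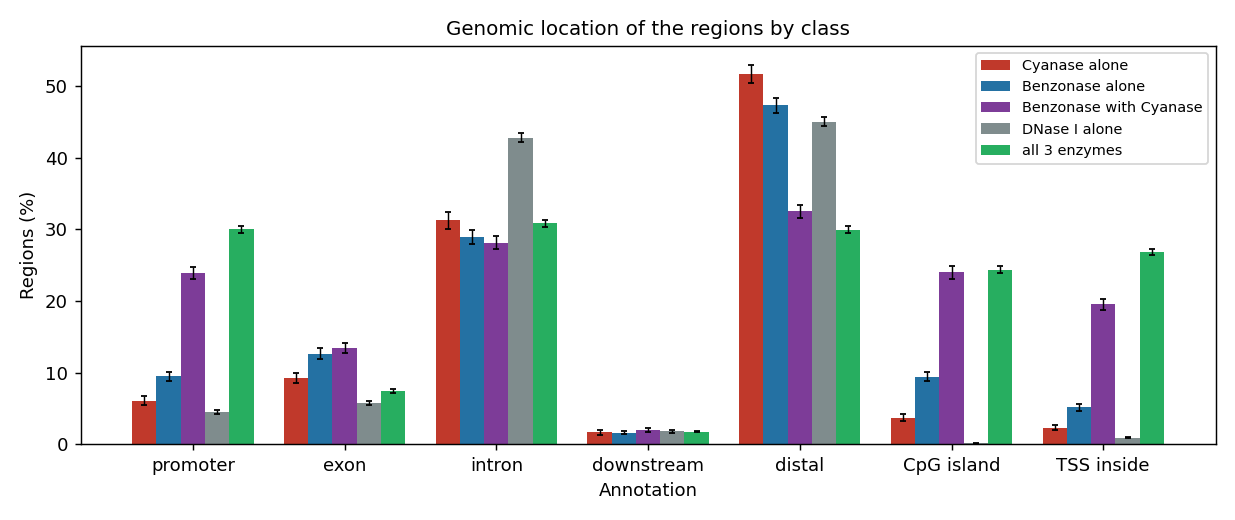
Percentage of regions of 5 classes at promoters, exons, introns, 2 kb downstream of genes and distal sequence, and percentage overlapping a CpG island or holding a TSS, with 95% Wilson intervals. Cyanase alone has 6.10% at promoters and 51.7% in distal sequence, against 23.9% and 32.5% in Benzonase with Cyanase.

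A TSS of a protein-coding gene lay inside 139 members (2.31%), against 13.9% of all regions and 5.16% of Benzonase alone. A wider region has more chance to hold a TSS, and the median width was 357 bp in members and 644 bp over all regions. These shares are not adjusted for width. These members marked 140 of 21416 protein-coding genes (0.654%), and 111 of the 140 had no TSS in any other region. For comparison, 12787 genes (59.7%) had a TSS in some region. None of the gene lists of active liver genes was among them. No TSS in a member was found for 28 liver-enriched transcription factors, 50 secreted liver proteins, 59 liver metabolic enzymes and transporters, 18 clock genes, 138 ribosomal protein genes or 39 proteasome genes, and 27, 49, 59, 18, 86 and 37 of these genes had a TSS in a region of some class. Set beside the 0.654% of all genes, lists of this length are too short for a count of 0 to set them apart.

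The listed genes with such a TSS were single cases. Des, the intermediate filament of muscle and also of hepatic stellate cells, had a member of 464 bp with 68.8% GC at its TSS, and the nearest Benzonase hotspot lay 41733 bp away. The sequence shown is the stretch of this member nearest to its centre that lies upstream of the transcript, at chr1:75356754-75356903, and it holds 7 runs of 4 or more.
upstream of Des: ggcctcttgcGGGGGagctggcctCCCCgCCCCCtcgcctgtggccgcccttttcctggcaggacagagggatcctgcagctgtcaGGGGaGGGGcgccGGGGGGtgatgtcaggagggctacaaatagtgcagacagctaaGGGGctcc

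Actc1, the cardiac actin gene, had a member of 359 bp with 61.3% GC. Rgs5, a regulator of G protein signalling in pericytes, had one of 443 bp with 51.7% GC. Syt1, the calcium sensor of synaptic vesicles, had one of 251 bp with a Benzonase hotspot 43 bp away. Irx1, a homeobox factor of development, had one of 463 bp with 68.5% GC. Lists of other cell types thus gave 2 of 18 genes for stellate and bile duct cells (Des and Rgs5), 2 of 27 for muscle (Actc1 and Des), 1 of 29 for neurons (Syt1) and 1 of 96 for developmental factors (Irx1), against 0.654% of all genes. Benzonase alone and Benzonase with Cyanase held a TSS of 9 and 22 of the developmental factors and of 4 and 5 of the neuronal genes. Lists of Kupffer cells, sinusoidal endothelial cells and lymphocytes gave 0 of 13, 0 of 15 and 0 of 15. Which cells of the tissue the cuts came from was not tested.

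Gene families gave further single cases. Against 0.654% of all protein-coding genes, potassium channel genes had 3 of 92, namely Kcne3, Kcnip2 and Kcnn4, and collagen genes had 2 of 42, Col22a1 and Col6a1. Benzonase alone held a TSS of 7 and 0 genes of these families, and Benzonase with Cyanase of 20 and 13. Pcdh15, a protocadherin of hair cells, had a member with 71.2% GC that lay 395 bp from a Benzonase hotspot. It was 1 of 34 protocadherin genes. Krt13, a keratin of stratified epithelia, was 1 of 51 keratin genes. The transporter gene Slco5a1 and the zinc finger genes Zfp286 and Zfp941 each had 1. Their families gave 2 of 357 Slc genes (0.560%) and 2 of 358 Zfp genes (0.559%), no more than the share of all genes. Slc47a1, an organic cation exporter, had a TSS in a member and another in a region of all 3 enzymes. Olfr658 was the only one of 1106 olfactory receptor genes. Other families had no TSS in a member, namely 39 Hox, 42 Fox, 14 Pou, 19 Wnt, 29 Fgf and 24 Adamts genes. The same held for 66 histone (Hist), 40 Nduf and 326 Vmn genes.

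Against the same 0.654% of all protein-coding genes, cytochrome P450 genes had 3 of 100, Cyp2b13, Cyp3a41a and Cyp3a41b. Their members are of uncertain identity, since 70.9%, 89.4% and 85.02% of the 24-mers of the central 250 bp have 2 or more copies in the genome. Members also lay inside the bodies of liver genes, away from the TSS. They were found in 15 of 59 metabolic genes (25.4%) and 9 of 50 secreted protein genes (18%), against 9.77% of all protein-coding genes. Liver-enriched transcription factors were lower at 7.14%. Some gene families were as high, with 35.3% of protocadherin, 28.6% of collagen and 25% of potassium channel genes. Lists of other cell types ranged from 5 of 29 neuronal genes (17.2%) and 3 of 18 stellate and bile duct genes (16.7%) to 0 of 13 Kupffer cell genes. No interval was computed for these shares, and lists this short cannot be ranked against the liver lists. Gene length was not taken into account. Cps1, the first enzyme of the urea cycle, and Ass1, a later enzyme of the cycle, each held 3. Near Tat, the tyrosine aminotransferase gene, 1 member lay within 50 kb. It was 338 bp wide, 9854 bp from the gene, and 4937 bp from the nearest Benzonase hotspot.

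Known binding motifs were also compared, and 6 of 21 had a share that differed from Benzonase alone. All 6 were lower in members. The E-box CAGCTG was present in 16.1% of members and 19.7% of Benzonase alone, a difference of -3.59 points (-4.84 to -2.32). Over all regions its share was 16.3%, so members lay near that share. The E-box CACGTG was present in 3.86% and 5.22%, with 5.19% over all regions. The GC box GGGCGG was present in 11.2% and 12.8%, with 14.3% over all regions. A core of the CTCF site was present in 0.216% and 0.6505%, with 0.321% over all regions. In the second pair of classes CACGTG (3.79% and 5.62%) and the CTCF core (0.0557% and 0.562%) were lower with Cyanase too, whereas the CREB site TGACGTCA, lower in members (0.182% and 0.410%), was higher there (0.725% and 0.281%, difference 0.443, interval 0.0508 to 0.972). The CREB site was present in 0.618% of all regions. The EGR1 site GCGTGGGCG was found in 2 members (0.0332%), against 0.229% of Benzonase alone and 0.228% of all regions. The other called motifs did not separate the second pair, with differences of -1.44 points for CAGCTG (-3.53 to 0.713), 0.262 points for the GC box (-0.923 to 1.54) and -0.0312 points for the EGR1 site (-0.177 to 0.184). The FOXA site TGTTTAC was present in 2.54% and 2.60%, with an interval of the difference from -0.583 to 0.471, and in 8.64% of DNase I alone. The C/EBP palindrome TTGCNNAA was present in 5.86% of members and 6.60% of Benzonase alone, with an interval of the difference from -1.54 to 0.0599. It was present in 7.07% of Benzonase with Cyanase, 22.6% of DNase I alone and 15.3% of all regions. Motifs were searched on both strands of the central 250 bp, and a match is not evidence of binding.

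Part of the members lay in sequence that occurs more than once. In 663 members (11%, interval 10.2 to 11.8%) at least 50% of the 24-mers of the central 250 bp had 2 or more copies in the genome, copies within the same repeat included. The share was 8.17% in Benzonase alone, 6.26% in Benzonase with Cyanase, 3.66% in DNase I alone and 4.04% over all regions. Members exceeded Benzonase alone by 2.83 points (1.85 to 3.82). In the second pair of classes the shares were 3.18% and 2.75%, with an interval of the difference from -0.524 to 1.48. Per the methods depth was counted in uniquely aligning tags, and the part of repeated sequence in the calls was not tested. Of the members, 39 (0.647%) were made mostly of 24-mers with 100 or more copies, and 3 matched mitochondrial DNA. These counts are not set against other classes here, so they are not called low or high.

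Tandem copies of units of 7 to 100 bp, counted where at least 70% of bases equal the base one unit earlier, were present in 271 members (4.50%), with 1.11% over all regions. The share was 2.98% in Benzonase alone and 3.84% in Benzonase with Cyanase, and 0.498% and 0.548% in the windows beside the members. The difference from Benzonase alone was 1.52 points (0.891 to 2.17). Without regions of multi-copy sequence it was 0.508 points (0.112 to 0.933), with 1.58% and 1.08%. The units did not separate the second pair of classes, which held them in 0.279% and 0.281%. Repeats of units of 2 to 6 bp spanning 30 bp or more were present in 3.38% of members and 1.65% of Benzonase alone. The windows beside the members held them in 4.33% and 5.26%, and those beside Benzonase alone in 4.82% and 4.51%. Both classes thus held fewer of these short units than the DNA beside them.

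Members were narrow, with a median of 357 bp (quartiles 277 and 449 bp, range 251 to 1201 bp), and Benzonase alone had a median of 369 bp. The median of all regions was 644 bp. Of Cyanase hotspots narrower than 492 bp, the lower quartile of that list, 36.8% were members, while of those of 899 bp or more only 8 of 13990 were. These values bear on the rule, since a wide hotspot has more chance to meet another.

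The few wide members differed strongly from wide Benzonase regions. Among regions of at least 643 bp, the median Cyanase hotspot, there were 57 members and 192 of Benzonase alone. Mean GC skew was 43.0% in these members and 13.1% in Benzonase alone, a difference of 29.8 points (20.7 to 39). Tandem copies of 7 to 100 bp units were present in 22.8% and 2.08%, whereas CpG islands were overlapped by 7.02% and 45.8%, and promoters held 8.77% and 32.8%. The share with a run of 6 or more was 21.1% and 17.7%, and its difference of 3.34 points (-7.13 to 16.5) was not detectable with so few regions. Islands were thus frequent among wide regions of Benzonase alone and rare among wide members, where tandem units and strand imbalance were more frequent. The skew, run and repeat measures of these 57 were chosen after the sequences had been examined.

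The widest member spanned 1201 bp in an intron of Ubash3b, a phosphatase gene. Its central 250 bp, the only part measured, held no run of G or C longer than 4. They held no tandem copies of 7 to 100 bp units either, and the skew was 8.20%. The following 9 lay near 1700047G07Rik (1072 bp), in Cenpj (1024 bp), Ahnak (947 bp) and Cdyl2 (933 bp), near S1pr3 (923 bp) and D030025P21Rik (922 bp), in Slc44a5 (922 bp) and AF064781 (891 bp), and at the promoter of Rere (839 bp). Skew was 91.4% near 1700047G07Rik, 92.8% near D030025P21Rik and 95.2% in Slc44a5, but 1.56% in AF064781. The group thus held extreme repeats beside sequence with balanced strands.

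The median gap from a member to the nearest Benzonase hotspot was 13870 bp, and to the nearest DNase I hotspot 17300 bp. Gaps from Benzonase alone to the nearest Cyanase hotspot had a median of 13340 bp. A Benzonase or DNase I hotspot lay within 1 kb of 1173 members (19.5%), and the members farther away held runs of 6 or more at similar shares. These were 26.4% under 1 kb, 24.8% from 1 to 10 kb, 24.9% from 10 to 100 kb and 24.5% at 100 kb or more. Promoters fell over the same distances, from 13.5% to 1.27%, and mean GC content was 54.2% under 1 kb and 51.5% at 100 kb or more. At the edge of the rule, 48 members lay less than 20 bp from another hotspot and had a mean GC content of 56.0%, and 37 Cyanase hotspots that overlapped another hotspot by at most 20 bp had 55.7%. The 5 farthest members lay 423523 bp or more from any hotspot of the other lists, nearest to Sis, Gm9884 (2 members) and Nxph1 (2 members), with 46.6% to 55.3% GC.

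**Figure D5:**
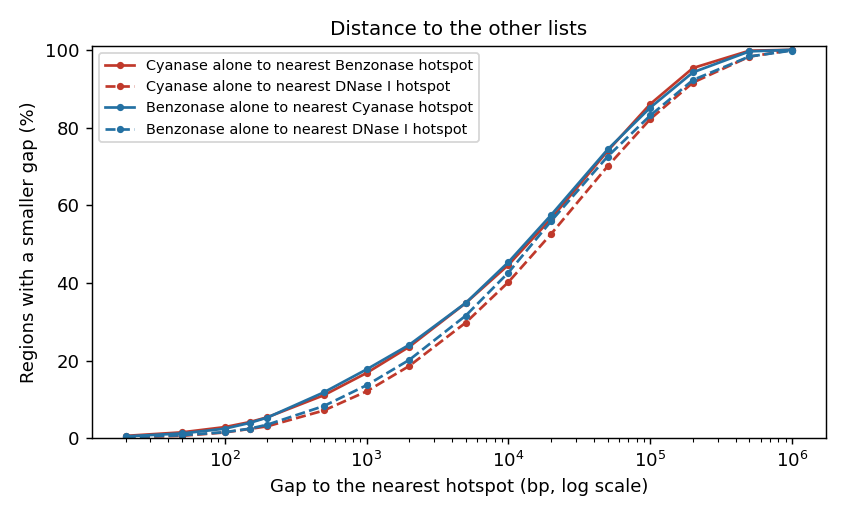
Percentage of Cyanase-alone and Benzonase-alone regions whose gap to the nearest hotspot of another list is smaller than the value on the x axis (bp, log scale). The medians are 13870 bp from Cyanase alone to Benzonase hotspots and 13340 bp from Benzonase alone to Cyanase hotspots.

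Members were spread over all chromosomes, from 2.24 per megabase on chromosome 10 to 2.94 on chromosome 19, and made up 5.34% of regions on chromosome 11 to 7.56% on chromosome 14. Of the windows of 100 kb that held a member, 4465 held 1, 639 held 2, 76 held 3, 12 held 4 and 2 held 5. Chromosome 10 from 76100001 to 76200000 held 5, in and around the collagen gene Col6a1, with little repeated sequence. Chromosome 13 from 66700001 to 66800000 held 4, near Zfp640, and there 71.4% to 100% of the 24-mers had other copies. The other windows of 4 or 5 named by the rule lay at chromosome 15 from 19600001 to 19700000 without a protein-coding gene, at chromosome 11 from 118200001 with Lgals3bp and Timp2, and at chromosome 15 from 80800001 with Mkl1 and Adsl.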

How the data were processed

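Hotspot positions on mm9 were deposited by the authors as 1 list per enzyme, with the chromosome, start and end and no tag number or score (columns of unit other in the deposited files). Per the methods, Eland or Bowtie placed the tags on mm9, the libraries of an enzyme were pooled, and hotspot calling used the mode of the tag density as threshold and an FDR of 0%. The headers describe the lists as input adjusted and unmerged, and name a pool for DNase I although 1 sample is labelled. No spread between replicates can be had, and the number of tags per hotspot is unknown.

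Lists were read as BED positions, and printed positions count from 1. Hotspots on chromosomes 1 to 19 that overlapped by at least 1 bp were merged. Sequence came from NCBIM37, the assembly of mm9, and genes from GENCODE M1. CpG islands were maximal-scoring segments (17 for a CpG, -1 for another base) of at least 200 bp, with a GC content above 50% and a CpG ratio (observed to expected) above 0.6. Sequence features were taken over the central 250 bp, where 24-mers were counted in chromosomes 1 to 19, X and Y. Matches to mitochondrial DNA used blastn 2.17.0 at an E value of 1e-10. Shares carry Wilson intervals, differences of shares Newcombe intervals, and differences of means normal intervals, all at 95%. Merging, sequence features, islands and intervals were tested on simulated data. The scripts ran in Python 3.11.15, with matplotlib 3.10.9, numba 0.67.0 and numpy 2.4.6.

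The members, gene lists and motifs were chosen with earlier results of these data known. Runs, skew, tracts, close G runs, tandem units, copy number and 6-letter words were chosen after the sequences had been examined. Genes were named if a TSS of a listed gene lay in a member, or if at or nearest to the 10 widest, 5 farthest, 5 highest and 5 lowest in GC content, the 5 fullest windows of 100 kb, or within 50 kb of Tat. Genes holding members in their bodies, typical regions and the one with the longest run were named after their values were seen. Printed sequences avoid annotated UTRs. There were 0 columns of other samples. Repeat annotation was not used here, because the genome was not soft-masked.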

Additional observations from a re-analysis of the deposited data

How the results depend on the processing

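Most differences between members and Benzonase alone kept their direction and stayed clear of 0. Of 164 alternative values, 146 stayed within the limits set for them. These include counts and shares, and also differences of the same sign whose intervals included 0 both before and after. The total therefore does not count differences clear of 0. Motif shares made up 21 of the 164 values and 17 of the 146. The number of members was 2282 when each list lost its narrowest hotspots (below its lower quartile) and 57 with at least the median Cyanase width, while other joining rules and all chromosomes gave up to 8666. Their share among all regions was 8.56% with an overlap of 50% of both hotspots, 3.57% without narrow hotspots, 5.34% at least 1 kb from other hotspots, 0.0627% at the median width and 6.81% on all chromosomes. At that width, the GC difference from Benzonase with Cyanase was -0.664 points and the difference in runs of 6 or more was 3.34 points, and both intervals included 0, with 57 members. For purine tracts in exons the difference was 0.317 points. Runs differed by 3.34 to 15.9 points over 18 alternatives, skew by 4.45 to 29.8 points over 16, and purine tracts by 0.317 to 10.01 points over 17, chosen after seeing the data. Nearness to other hotspots, which bears on the rule and is a description only, was -1.48 points from that of Benzonase alone within 1 kb, -0.928 within 500 bp and -1.005 within 5 kb. With all transcripts 215 genes had a TSS in a member, and 292 with a TSS within 500 bp. In the central 150 bp, 4 motifs differed in place of 6, the CREB and EGR1 sites no longer among them, the FOXA difference was 0.0172 points and that of the HNF4A core -0.0494, neither clear of 0 before or after. The cause of these changes was not tested. Soft-masked repeats were not run. Leaving out a replicate was not possible, because the lists are pooled. No paired analysis was possible because the lists carry no replicate numbers. Depth per hotspot is unknown, so a missing hotspot does not show absence of cutting.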
